A study of Mus musculus with 12 samples.

Results

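The epidermal growth factor (EGF) receptor gene Egfr, 7 ligand genes of the EGF family (Hbegf, Areg, Ereg, Btc, Tgfa, Egf and Nrg1) and the receptor inhibitor gene Errfi1 were followed through auditory cortex slices, 9 genes of the 20989 loci measured. They were chosen by name, as the rows of the expression files that carry these gene symbols, and each symbol had 1 row. The slices came from 6 C57bl6/J mice that were 4 weeks old. The hemispheres of each slice were separated, and after the same recovery the one was kept in fresh artificial cerebrospinal fluid (control) and the other in cocktail aCSF, each for 1 h, with a rest of 1 h in aCSF afterwards. Cocktail aCSF holds (-)-bicuculline methiodide, which blocks GABA-A receptors, together with DL-norepinephrine hydrochloride, carbamoylcholine chloride (an acetylcholine analogue), dopamine hydrochloride, serotonin hydrochloride and ascorbic acid. All agents were given together, so their shares in any difference cannot be told apart, and both groups are cut tissue that was kept alive in fluid. Auditory cortex was dissected from each hemisphere and its poly-A RNA sequenced, which gave 6 control and 6 cocktail libraries paired by mouse.

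EGF family ligands are made as membrane-bound precursors, which metalloproteases of the ADAM family cut to free the active growth factor. HB-EGF, amphiregulin, epiregulin, betacellulin, TGF-alpha and EGF, encoded by Hbegf, Areg, Ereg, Btc, Tgfa and Egf, bind the EGF receptor, while the neuregulins such as Nrg1 bind its relatives ErbB3 and ErbB4. The activated receptor signals through Ras and the kinases Raf, MEK and ERK. Errfi1 encodes Mig-6, a protein that binds the kinase domain of the receptor and inhibits it, and whose gene is known as a target of the same pathway. In the cortex this family is known for its roles in glia and in the formation of inhibitory synapses, and Hbegf and Errfi1 belong to the genes that growth factors induce quickly in many cell types.

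Errfi1 and Areg, whose cocktail values all lay above their control values (described below), have in common the 8 letters TGACGTCA, the consensus of the cyclic AMP response element (CRE), close to their start sites. The 250 bases before the start site are shown for both, with the promoter of Egfr, which holds no such match, for comparison. They are from RefSeq (GRCm38.p6, all on the plus strand) and capitals mark the CRE consensus. The windows are chr4:150854820-150855069 for Errfi1, chr5:91139349-91139598 for Areg and chr11:16751953-16752202 for Egfr.
Errfi1: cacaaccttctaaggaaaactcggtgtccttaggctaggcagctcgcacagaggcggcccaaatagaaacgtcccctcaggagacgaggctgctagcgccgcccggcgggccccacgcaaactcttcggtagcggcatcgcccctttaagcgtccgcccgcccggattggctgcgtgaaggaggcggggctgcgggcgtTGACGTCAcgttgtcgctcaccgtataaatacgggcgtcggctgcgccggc
Areg: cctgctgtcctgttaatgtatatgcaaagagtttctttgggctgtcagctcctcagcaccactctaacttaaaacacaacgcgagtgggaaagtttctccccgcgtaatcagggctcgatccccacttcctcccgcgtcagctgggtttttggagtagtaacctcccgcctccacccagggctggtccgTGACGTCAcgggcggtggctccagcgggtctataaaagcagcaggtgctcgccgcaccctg
Egfr: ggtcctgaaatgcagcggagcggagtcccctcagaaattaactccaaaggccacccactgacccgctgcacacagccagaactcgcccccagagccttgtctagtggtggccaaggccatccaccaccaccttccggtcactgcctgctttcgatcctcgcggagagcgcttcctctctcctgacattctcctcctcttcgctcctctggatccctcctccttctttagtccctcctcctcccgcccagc
In Errfi1 the match spans the bases 51 to 44 before the start, and in Areg the bases 61 to 54. RefSeq lists a further start site of Errfi1 upstream, at base 150853796 of chromosome 4, whose window holds no match. Promoters of 6 of the 9 genes were available (Areg, Btc, Tgfa, Egf, Egfr and Errfi1), and the windows of Btc, Tgfa, Egf and Egfr held no full match either. Hbegf, which was called higher in the cocktail (described below), Ereg and Nrg1 had no window and were not searched. Areg was not called. Whether a match goes with a change in the cocktail was not tested. Of all 32851 promoter windows of this length, 508 (1.55%) hold TGACGTCA, which reads the same on both strands. TGACG, the first 5 letters of the CRE, searched on both strands and present in every CRE match, stands in 17.8% of all windows and among these genes in Errfi1, Areg and Btc. The AP-1 consensus TGANTCA (6.75% of all windows), the EGR consensus GCGTGGGCG (0.536%, both strands) and the CArG box (1.47%) had no match in the windows of these genes. A match describes letters in the window and does not show that a factor binds there.

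The values are FPKM, the fragments on a gene scaled to its transcript length and to all fragments on protein coding genes of the library, so levels of different genes can be compared. The reads behind each value were recovered from its confidence interval and summed to a median of 14924264 in control libraries (10601067 to 19768881) and a median of 15164166 in cocktail libraries (13544297 to 17643462). The library of control mouse 1 stood apart from the others. Its values scattered around the median of the other libraries with the same treatment with an SD of 0.263 on the log2(FPKM + 1) scale, against 0.14 to 0.177 for the other 11 libraries. Where leaving out mouse 1 changed a call or a count of calls given here, the value without it is also given. Loci whose FPKM averaged 1 or more, 12032 in all, entered a limma fit on log2(FPKM + 1) that treats each mouse as a block, and the Benjamini-Hochberg adjustment ran over all of these loci. A fold change on this scale understates the change of genes with low FPKM. For single genes the signs of the 6 within-mouse differences were also permuted exactly (sign-flip test, two-sided), which cannot give a p below 0.031.

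Errfi1 had the highest mean level of the 9 genes in both conditions. In control slices Errfi1 had 32.9 ± 2.74 FPKM (SD, n = 6), which puts it at percentile 89.9 of all loci. Hbegf with 7.75 ± 1.29 FPKM and Tgfa with 7.1 ± 0.57 FPKM followed, then Nrg1 with 2.44 ± 0.589 FPKM and Egfr with 1.97 ± 0.274 FPKM (SD, n = 6 each). Btc (0.207 ± 0.114 FPKM), Egf (0.197 ± 0.0762 FPKM) and Areg (0.101 ± 0.0648 FPKM, SD, n = 6 each) were near the limit of detection. Ereg was at 0 reads in all 12 libraries, where a count of 0 allows up to 3 reads in a library. In the cocktail the order of the means was the same, except that Areg stood above Btc and Egf. Neighbours in the order were compared within each condition, 16 pairs in all. None of the 16 passed 0.05 after Benjamini-Hochberg adjustment in the exact sign-flip permutation test, in which the smallest adjusted p was 0.0625, and 8 had an unadjusted p of 0.031, the smallest possible. With 6 libraries an adjusted p under 0.05 would need more of the pairs at that smallest value, so the adjusted test cannot decide single pairs. In each of those 8 pairs the same gene was higher in 6 of 6 libraries, for example Errfi1 over Hbegf in control slices (4.24 times the mean). Hbegf and Tgfa could not be told apart in control slices, where Hbegf was higher in 4 of 6 libraries (exact sign-flip permutation p = 0.5625). In the cocktail Hbegf was higher than Tgfa in 5 of 6 libraries (exact sign-flip permutation p = 0.0625). Btc and Egf did not differ beyond their spread in either condition (exact sign-flip permutation p = 0.84375 in control and 0.125 in cocktail), nor did Egf and Areg in control slices (p = 0.09375) or Areg and Btc in the cocktail (p = 0.21875). Nrg1 was above Egfr in 6 of 6 control libraries and in 4 of 6 cocktail libraries (p = 0.40625 in the cocktail by the same exact test).

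The question put to these libraries was which transcripts the cocktail changes within the slice of the same mouse. With limma's adjusted p under 0.05 as the threshold, 1.5% of all loci tested were called, 1.22% as higher in the cocktail and 0.274% as lower. These were 180 loci, 147 higher and 33 lower. Without mouse 1 there were 157, of which 131 were higher and 26 lower. Of the 9 genes, 5 passed the filter on FPKM. Errfi1 and Hbegf were called higher, none was called lower, and Egfr, Tgfa and Nrg1 were not called. RNA from whole cortex was measured, so more cells of a type and more RNA per cell cannot be told apart in any of these values.

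**Figure D1:**
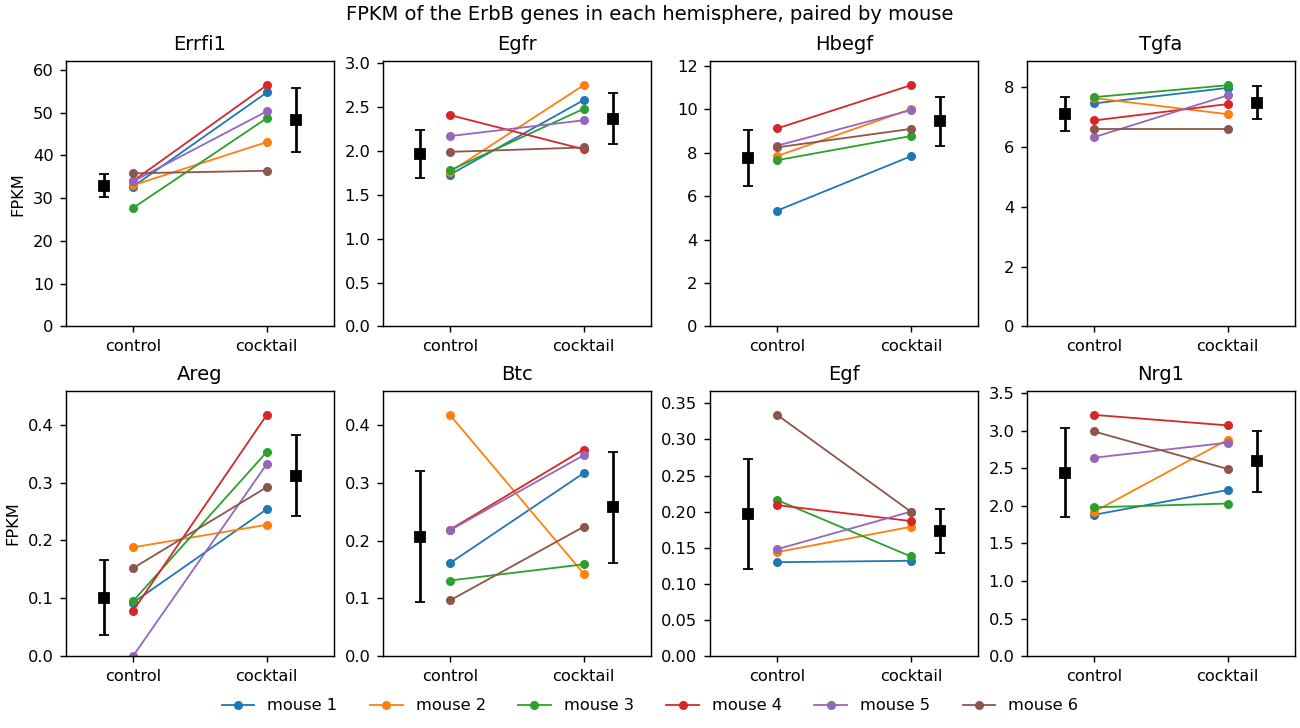
FPKM of 8 genes in each control and cocktail hemisphere, with a line for each mouse and, as black squares with bars, the mean ± SD of the 6 libraries. Each axis starts at 0. Errfi1 and Areg show no overlap between control and cocktail values, Hbegf rises in each mouse from a different starting level, and Ereg, at 0 in every library, is not drawn.

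Errfi1, the receptor inhibitor, had the largest log2 fold change of the 5 genes tested. Its FPKM in control slices was 27.7 at the lowest, 33.5 at the median and 35.8 at the highest. In cocktail-treated slices the lowest was 36.4, the median 49.5 and the highest 56.4. The values did not overlap, although the highest control and the lowest cocktail value, both from mouse 6, were close to each other. Of all loci tested, 0.715% had every cocktail value above every control value and 0.199% every cocktail value below. The mean rose to 48.3 ± 7.46 FPKM (SD, n = 6), which is 1.47 times the control mean. The log2 fold change was 0.53 (standard error 0.0871, 95% interval 0.34 to 0.72, adjusted p = 0.0081 from limma). The within-mouse log2 difference was 0.37 in mouse 2 and 0.56 to 0.79 in mice 1, 3, 4 and 5. In mouse 6 it was only 0.027. Errfi1 was higher in 6 of 6 mice, as were 3.64% of all loci tested (exact sign-flip permutation p = 0.031 for Errfi1, the smallest possible). The gene had 1158 to 2887 reads in a library. The gene, on chromosome 4 of mm10 from 150855091 to 150868880, has no exon in common with another gene in GENCODE M21. Without a filter on low FPKM, which brought the number of loci tested to 17477 with 0.704% called, its adjusted p from limma was 0.0594.

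Egfr itself, which encodes the receptor (chromosome 11, 16752203 to 16913907), was measured at a low level. In control slices the FPKM was 1.73 at the lowest, 1.88 at the median and 2.41 at the highest, and in cocktail-treated slices 2.02, 2.42 and 2.75. The ranges overlapped. It was higher in 5 of 6 mice and lower in mouse 4, with within-mouse log2 differences from -0.18 to 0.44. The log2 fold change of 0.18 (standard error 0.084, 95% interval -0.002 to 0.365) was not called, with an adjusted p of 0.626 from limma and an unadjusted p of 0.0524. An unadjusted p under 0.05 was reached by 8.05% of all loci. In fits that omit 1 mouse its log2 fold change ran from 0.129 without mouse 2 to 0.253 without mouse 4, and the adjusted p from limma from 0.396 without mouse 4 to 0.859 without mouse 3. The gene had 122 to 248 reads in a library. The files name 2 transcripts for it, and FPKM depends on how reads are divided between them. By reads alone, 1061 in control and 1206 in cocktail libraries, the ratio after the depth is taken into account was 1.12, with an exact 95% interval of 1.03 to 1.22 for counting error only. The ratio of Errfi1 to Egfr, both in FPKM, ran from 14.1 to 18.9 without and from 15.7 to 27.9 with the cocktail. Within mice it was lower with the cocktail in mouse 2 (18.8 to 15.7) and mouse 6 (18.0 to 17.9), and higher in the other mice.

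Hbegf, which encodes heparin-binding EGF-like growth factor, had the highest mean FPKM of the EGF receptor ligands, although it could not be told apart from Tgfa in control slices and Tgfa was the higher of the pair in both hemispheres of mouse 1. In control slices its FPKM was 5.33 at the lowest, 8.04 at the median and 9.11 at the highest, and in cocktail-treated slices it was 7.83, 9.52 and 11.1. The groups overlapped widely, and libraries of the same condition differed in level. Still, the cocktail hemisphere was higher than the control hemisphere of the same mouse in 6 of 6 mice. The within-mouse log2 differences ran from 0.13 in mouse 6 to 0.48 in mouse 1. The mean changed from 7.75 ± 1.29 to 9.45 ± 1.13 FPKM (SD, n = 6 each), 1.22 times as much. Its log2 fold change was 0.26 (standard error 0.057, 95% interval 0.14 to 0.39), with an adjusted p of 0.0428 from limma. This call is near the threshold and was lost whichever mouse was left out, with a log2 fold change between 0.22 and 0.29 and an adjusted p from limma between 0.0548 and 0.163. Without mouse 1, whose control library had the lowest Hbegf FPKM, the adjusted p from limma was 0.0608. Without the mouse as a block it was 0.672. The gene lies on chromosome 18 from 36504927 to 36515805, with 259 to 483 reads per library.

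Tgfa, which encodes TGF-alpha (chromosome 6, 86195251 to 86275449), was not called. In control slices its FPKM was 6.33 at the lowest, 7.18 at the median and 7.67 at the highest, and in cocktail-treated slices 6.61, 7.58 and 8.07, so that the groups overlapped over most of their range. The log2 fold change was 0.068 (standard error 0.0561, 95% interval -0.055 to 0.19, adjusted p = 0.85 from limma). Tgfa had 281 to 608 reads in a library, and whether its change differed from that of Hbegf was not tested. Its exons overlap those of Gm43917 on the opposite strand. The authors describe their reads as strand specific, but whether the strand was used in assigning reads to genes is not given in the sources used here.

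Areg, which encodes amphiregulin, showed the largest ratio of the 9 genes, at a level too low for the filter. Its FPKM in control slices was 0.0923 in mouse 1, 0.188 in mouse 2, 0.095 in mouse 3, 0.0782 in mouse 4, 0 in mouse 5 and 0.152 in mouse 6. In the cocktail hemispheres of the same mice it was 0.254, 0.227, 0.353, 0.417, 0.332 and 0.292. All 6 cocktail values lay above all 6 control values, a separation found for 0.22% of the 5445 loci with a mean FPKM above 0 and under 1, and Areg was higher in 6 of 6 mice, as were 1.6% of these loci. The mean was 0.312 ± 0.0695 FPKM against 0.101 ± 0.0648 FPKM (SD, n = 6 each), 3.1 times the control mean (exact sign-flip permutation p = 0.031, the smallest possible). These values rest on 18 reads in the 6 control libraries and 56 reads in the 6 cocktail libraries, and after the depth is taken into account the ratio of reads was 3.06, with an exact (Clopper-Pearson) 95% interval of 1.77 to 5.54 that covers counting error only. On the scale of log2(FPKM + 1) the mean difference was 0.25. With all loci in the fit its adjusted p from limma was 0.0755, and 0.561% of those loci were called higher, so Areg was not called over all loci. The gene is on chromosome 5 from 91139615 to 91148432.

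Btc and Ereg lie near Areg on the same chromosome, and whether Btc differed from Areg in its response was not tested. Btc, which encodes betacellulin (91357261 to 91402994), had 0.0964 FPKM at the lowest, 0.189 at the median and 0.418 at the highest in control slices, and 0.143, 0.271 and 0.358 in cocktail-treated slices. It was higher in 5 of 6 mice and lower in mouse 2 (exact sign-flip permutation p = 0.40625), with 55 reads in control and 70 reads in cocktail libraries. Ereg, the epiregulin gene (91074617 to 91093649), had no read in any library. Egf, which gave the family its name (chromosome 3, 129677575 to 129755322), had 0.13 FPKM at the lowest, 0.178 at the median and 0.334 at the highest in control slices. In cocktail-treated slices these values were 0.132, 0.183 and 0.2. Egf was higher in 3 of 6 mice (exact sign-flip permutation p = 0.5), on 100 reads in control and 94 reads in cocktail libraries, a ratio of 0.925 with an exact 95% interval of 0.691 to 1.24. Its exons overlap those of 6330410L21Rik and Gm42697 on the opposite strand.

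Added up over the 6 ligands of the EGF receptor, the FPKM had a median of 15.6 in control libraries (13.2 to 16.5) and of 17.6 in cocktail libraries (16.4 to 19.5). Hbegf made up 40.5 to 55.4% of this sum in control and 47.4 to 56.8% in cocktail libraries, and Tgfa 41.7 to 56.6% and 38.2 to 48.3%. The other 4 ligands together gave 2.43 to 4.62% in control and 3.1 to 4.95% in cocktail libraries. The ranges of these shares overlapped between the conditions. Within mice, the sum was higher in the cocktail in 6 of 6, the Hbegf share was higher in 5 of 6 and the Tgfa share was lower in 6 of 6, with the smallest shift in mouse 5, from 42.2 to 41.6%, and the largest in mouse 1, from 56.6 to 48.3%. Shares of 1 sum are not independent of each other, and they are given as a description.

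Nrg1, which encodes neuregulin 1, was not called. In control slices its FPKM was 1.88 at the lowest, 2.31 at the median and 3.21 at the highest, and in cocktail-treated slices 2.03, 2.66 and 3.07, nearly the same range. It was higher in 4 of 6 mice, and its log2 fold change was 0.071 (standard error 0.0756, 95% interval -0.094 to 0.236, adjusted p = 0.887 from limma). The files give Nrg1 by 1 transcript, from 31818028 to 31918203 on chromosome 8, while RefSeq lists 12 curated mRNAs between 31807452 and 32891609. These values therefore describe that transcript model rather than all neuregulin 1 RNA, and its exons overlap those of Gm26578 on the opposite strand.

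**Figure D2:**
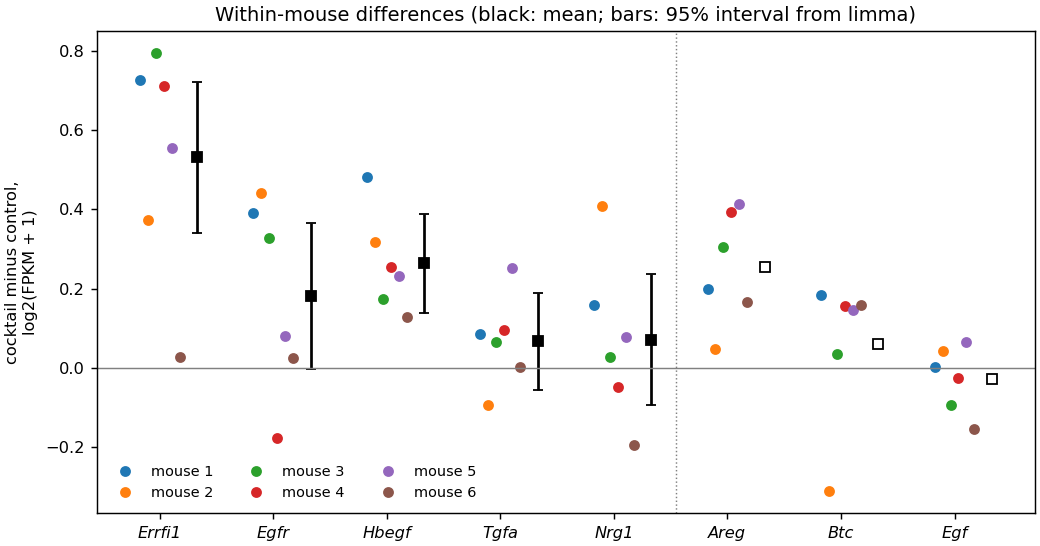
Within-mouse differences, cocktail minus control, on the log2(FPKM + 1) scale, with a coloured point for each of the 6 mice. Filled squares are the limma estimates with their 95% intervals for the 5 genes tested, and open squares are means for the 3 genes under the filter. Errfi1, Hbegf and Areg are above 0 in 6 of 6 mice, and the Errfi1 point of mouse 6 is the lowest of its group at 0.027.

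The other genes of the pathway were taken from 6 lists. Of the ErbB receptors other than Egfr, only Erbb3, the partner receptor for neuregulins, passed the filter, at 1.87 ± 0.203 FPKM without and 1.96 ± 0.422 FPKM with the cocktail (n = 6 each), and it was not called. Erbb4 and Erbb2 were under the filter, at 0.6 ± 0.136 and 0.37 ± 0.0861 FPKM in control slices (SD, n = 6 each). Of the 4 other ligands, 2 were tested and not called. Nrg3, the most abundant at 13.5 ± 0.789 FPKM in control slices (SD, n = 6), had a log2 fold change of 0.028 (adjusted p = 0.947 from limma). In the list of ADAM proteases, the neuregulin protease Bace1 and rhomboid proteins, 9 of 11 genes were tested and 0 called, with a median log2 fold change of -0.036 against 0.008 over all loci tested. None of the 9 had an unadjusted p under 0.05. Adam17 and Adam10, the main proteases that release EGF receptor ligands, had log2 fold changes of -0.036 and 0.010. Receptor attenuators other than Errfi1, among them the ubiquitin ligase genes Cbl and Cblb and the receptor-binding Lrig1, had 8 genes tested and 0 called (median log2 fold change -0.025, 1 gene at an unadjusted p under 0.05). Of the 18 adaptors and kinases from Grb2 to Mapk3, 18 were tested and 0 called (median 0.028, 1 gene at an unadjusted p under 0.05). Mapk3, which encodes an ERK kinase, had a log2 fold change of -0.034.

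Called genes were found in the list of ERK feedback inhibitors. Of its 9 genes, 9 were tested and 5 were called higher and 0 lower, against 1.22% of all loci called higher. The list was chosen with earlier results of these data known, so its share of called genes is given as a description only. The median log2 fold change was 0.34. Dusp6 and Dusp5, phosphatases that act on ERK, had log2 fold changes of 0.82 (adjusted p = 2.92e-05 from limma) and 0.81, Spry2 and Spry1, inhibitors of receptor tyrosine kinase signalling, 0.56 and 0.34, and Dusp4 0.44. Spry4 was at 0.28 (adjusted p = 0.068 from limma). Spred1, Spred2 and Spred3 had values of 0.037, 0.038 and -0.065 and were not called. Under median-of-ratios scaling and under quantile normalization 6 of the 9 genes were called higher, and without the mouse as a block 3. Without mouse 1 the count was 4, as it was without mouse 3, 4 or 5.

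**Figure D3:**
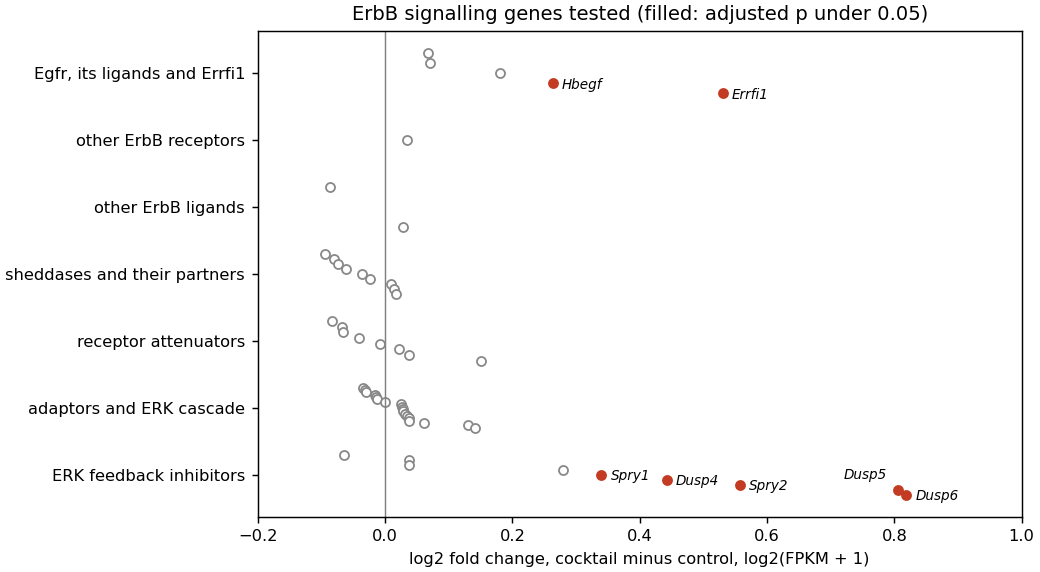
Log2 fold change, cocktail minus control, of each gene tested on the log2(FPKM + 1) scale, by list. Filled red points are called (adjusted p under 0.05 from limma) and open points are not. Errfi1 at 0.53 and Hbegf at 0.26 are called among the 5 genes of the top row, no gene is called in the receptor, ligand, protease, attenuator and kinase lists, and 5 of 9 feedback inhibitors are called.

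The tissue carried the transcripts of cortical neurons and glia in both conditions, and limma called 0 of the 44 cell type markers tested. An unadjusted p under 0.05 from limma was reached by 3 of the 44, as by 8.05% of all loci tested. The 3 were Pdgfra of oligodendrocyte precursors, Cdh5 of endothelial cells and Abcc9 of mural cells, with log2 fold changes of 0.17, 0.18 and 0.14. These 3, Gad2 of inhibitory neurons and Pecam1 of endothelial cells were higher in 6 of 6 mice, as were 3.64% of all loci tested. Summed over 6 markers of excitatory neurons the FPKM came to 2460 to 2810 without and 2350 to 2780 with the cocktail. Over 6 astrocyte markers it was 445 to 593 and 537 to 600, higher in the cocktail in 5 of 6 mice, with a median log2 fold change of 0.065 and 5 of 6 markers above 0, or 2 of 6 without mouse 1. Over 6 oligodendrocyte markers it was 2000 to 2570 and 2300 to 2640, higher in 5 of 6 mice, with a median of 0.116. Of these markers 6 of 6 were above 0, also without mouse 1. Over 4 markers of oligodendrocyte precursors the sum was 81.7 to 106 and 86.8 to 111 (median 0.10). Over 6 microglia markers it was 82.2 to 93.3 and 81.3 to 99.9 (median 0.006). Over 6 markers of inhibitory neurons the sum was 480 to 540 and 511 to 557, higher in 5 of 6 mice, with a median of 0.075 and 6 of 6 markers above 0. Over 6 markers of endothelial cells it was 41.6 to 49.6 and 42.4 to 53.7, higher in 5 of 6 mice (median 0.044), and over 4 markers of mural cells 22.9 to 29.6 and 25.3 to 34.9, higher in 3 of 6 mice (median 0.073). Choroid plexus markers summed to at most 2.23 FPKM and hemoglobin and other blood markers to at most 2.8 FPKM in any library. Among the most abundant markers were Nrgn, Sst, Slc1a2, Mbp, Olig1, Cldn5, Rgs5, Kl and Hba-a1. Copies of Hba-a1 cannot be told apart by reads with a single placement, so the sum of the blood markers can understate their RNA. These medians lie under the log2 fold changes of Errfi1 and Hbegf, and their part in those results was not tested.

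The loci whose pattern over libraries was most like that of a gene were sought for Errfi1, Hbegf, Egfr and Nrg1. Among the loci tested, those most like Errfi1 were Mafk (Pearson r = 0.957 over 12 libraries of log2(FPKM + 1)), Tinf2 (0.954), Tiparp (0.953), Dusp16 (0.945) and Itprip (0.934). Tinf2 and Tiparp were also called higher, with log2 fold changes of 0.59 and 0.80. For Hbegf they were Psat1 (0.963), Kcnj2 (0.956), Ing2 (0.954), Slbp (0.943) and Malt1 (0.941), of which none was called. Egfr was matched less closely, by Gnpnat1 (0.853), Rbm11 (0.836), Cwc25 (0.831), Foxc1 (0.814) and Gem (0.805), of which Cwc25 and Gem were called higher, and Nrg1 by Asb13 (0.932), Ube2m (0.909), Ctnnd1 (0.905), Zfp57 (0.899) and Pyroxd1 (0.891). No list shared a gene with another. Between the 4 genes themselves r ran from 0.294 for Nrg1 and Errfi1 to 0.714 for Hbegf and Nrg1. The libraries share mice, depth and treatment, these loci were the highest of 12032, and the correlations are given as descriptions.

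**Figure D4:**
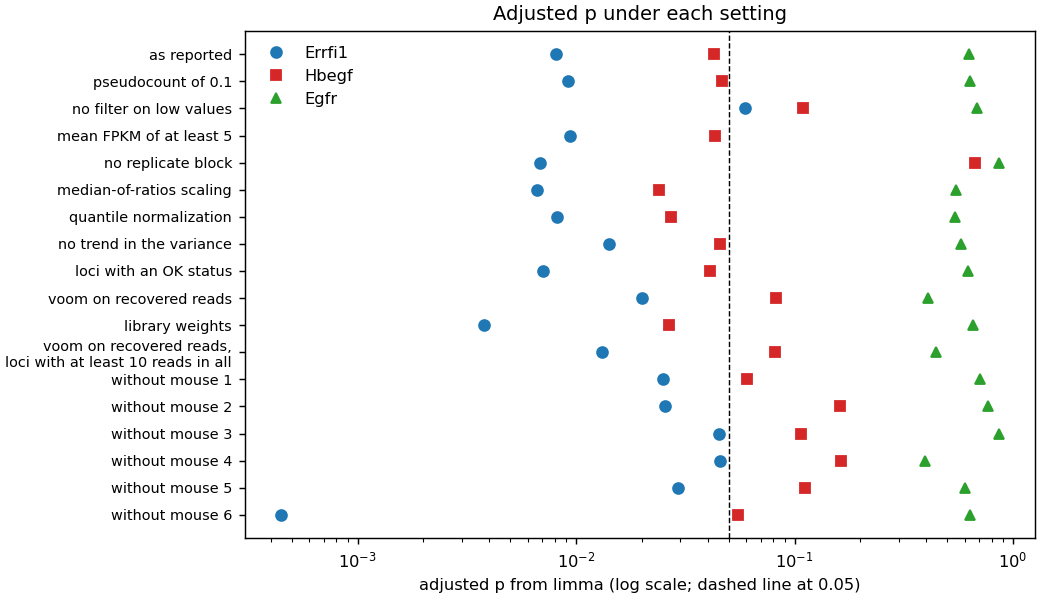
Adjusted p from limma (log axis, dashed line at 0.05) for Errfi1, Hbegf and Egfr as reported and under each other setting. Errfi1 stays left of the line in all settings except no filter on low values (0.0594), Hbegf crosses it whenever a mouse is left out, and Egfr is to the right of it throughout.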

How the data were processed

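Poly-A RNA of auditory cortex from 6 control and 6 cocktail hemispheres was sequenced. The authors removed ribosomal reads with BWA 0.6.1, aligned the rest to mm10 with TopHat 1.4.1, with a single placement per read, and deposited FPKM with confidence intervals from Cufflinks 1.3.0, with bias correction. The authors also deposited a table of their DESeq2 1.6.3 comparison of HTSeq 0.6.1p1 counts. From it only the mean normalized count was used, a signal that the authors made by dividing counts by size factors and averaging all libraries, to check recovered reads (for Hbegf 395.0 recovered against 394.0, for Areg 6.17 against 6.39). Its fold changes, p-values and group means were not used.

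The model in limma 3.58.1 (R 4.3.3) had log2(FPKM + 1) as response, the mouse and the condition as terms and a variance trend, and loci needed an average FPKM of 1. Genes with an adjusted p under 0.05 were called. Reads were recovered from the interval, taken as 2 Poisson standard deviations to each side. Of 36411 values under 20 reads, 82.8% were whole to within 0.05. The fit was also run on simulated data. The changes planted there were larger than those of Errfi1 and Hbegf, so that run does not cover changes of their size. Hemispheres of a mouse come from the same animal per the labels, and their deviations from the group means correlated across loci (r = 0.216 to 0.406, median 0.337, 6 pairs). Hemispheres of different mice had r from -0.42 to 0.445 (median -0.071, 30 pairs), so some of these correlated as highly. Within a condition, the chi-square distance between libraries was 7.79 to 42.6 per locus in control and 9.21 to 29.0 in cocktail, so none was a copy of another.

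The genes, the lists and the tests were chosen with earlier results of these data known. All 9 genes were named, with every called gene of each list and up to 2 of its most abundant others, the most abundant marker of each cell type, and for Hbegf, Errfi1, Egfr and Nrg1 the 5 loci of highest correlation. Some genes that this rule names are not reported here. Others named as examples were chosen after their values were seen. Alternatives were another pseudocount, filter, scaling or variance model, no block, voom on recovered reads, library weights and the removal of each mouse. Positions come from the files (mm10, first base 1). Exon overlaps are from GENCODE M21 and Python 3.11.15 with matplotlib 3.10.9 drew the figures.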

Additional observations from a re-analysis of the deposited data

Results flagged for a closer look

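Of 24 groups of 6 values examined for these genes, 1 held a value far from the other 5, where chance gives 1.2. The within-mouse log2 difference of Btc was -0.31 in mouse 2. The other mice had 0.035 to 0.183, and the gap between them takes up 0.702 of the range. It rests on 19 reads in the control and 6 reads in the cocktail hemisphere.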

How the results depend on the processing

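The number of loci called was 180, and the number among the 9 genes was 2 (Errfi1 and Hbegf). With no filter on low values 0 of the genes were called, since Hbegf had an adjusted p of 0.109 and Errfi1 of 0.0594 from limma at unchanged log2 fold changes of 0.26 and 0.53, with more loci tested. Both had an unadjusted p under 0.05, and voom called Errfi1. Without the replicate block 88 loci and 1 of the genes were called, and Hbegf had a log2 fold change of 0.26 with an adjusted p of 0.672. With voom on recovered reads 118 loci and 1 of the genes were called, and Hbegf had 0.262 with an adjusted p of 0.0821. With voom on all loci with at least 10 reads, chosen after seeing the data, 1 gene was called and Hbegf had 0.262 with an adjusted p of 0.0815. The cause was not tested. Across the fits that each left out 1 mouse, 104 (without mouse 4) to 181 loci and 1 of the genes, Errfi1, were called, with fewer samples. The log2 fold change of Hbegf was then 0.22 to 0.29. Errfi1 was 0.48 to 0.63 with adjusted p of 0.000444 to 0.0456. It kept its call in 16 of 17 alternatives and Hbegf in 7 of 17. Egfr, Tgfa and Nrg1 were not called in any alternative. With 1 mouse left out Nrg1 ran from 0.003 (without mouse 2) to 0.124 (without mouse 6) and Tgfa from 0.031 (without mouse 5) to 0.10 (without mouse 2), and the block changed no other call among the 9 genes.

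For Areg the log2 difference of 0.25 depends on the pseudocount. It was 1.09 with 0.1 and 1.52 with voom on loci with at least 10 reads (adjusted p = 0.264), which use other scales by construction. In the latter fit Btc was at 0.355 and Egf at -0.151, neither called. Depth limits Areg, Btc and Egf, with at most 20 reads in a library. Egfr and Nrg1 have no value under a minimum FPKM of 5.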

Other observations

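In the pathway lists, 4 genes that were tested and not called moved in the same direction in 6 of 6 mice. The genes tested and not called numbered 1, 2, 9, 8, 18 and 4 in the 6 lists. Of all loci tested, 3.64% were higher and 2.66% lower in 6 of 6 mice, called loci included, so the 4 genes are given as a description. They are Spry4, whose values are given above, and Gab1, Ptpn2 and Nrg2, named after their values were seen. Gab1, an adaptor of receptor tyrosine kinases, had 7.61 ± 0.912 FPKM without and 8.5 ± 1.04 FPKM with the cocktail (mean ± SD of 6 libraries), and its log2 fold change was 0.14 (adjusted p = 0.486 from limma). Ptpn2, a tyrosine phosphatase, had 7.78 ± 1.11 and 8.68 ± 0.293 FPKM (0.15, adjusted p = 0.611 from limma). Nrg2, a neuregulin, was at 3.03 ± 0.182 and 2.79 ± 0.198 FPKM, lower in the cocktail in 6 of 6 mice (-0.087, adjusted p = 0.78 from limma).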
